A study of Homo sapiens with 18 samples.

Results

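LNCaP cells that carry a tetO-Gal4 construct were compared with and without doxycycline (Dox). LNCaP is an established human prostate cancer cell line of luminal, androgen-responsive character, and Dox is the drug that switches a tetO promoter on. The comparison used 6 of the 18 arrays of the series, 3 labelled LNCaP-tetO-Gal4 (control cells) and 3 labelled LNCaP-tetO-Gal4 + Dox (expressing galectin-4), chosen by their titles alone. The remaining arrays held 22Rv1 prostate cancer cells with the same construct without and with Dox, used here for contrast, and 22Rv1-M4 cells with either scramble or shGal4. Both LNCaP groups carried the construct, and no LNCaP group received Dox without it. Effects of Dox itself and of galectin-4 therefore cannot be told apart. The sources used here do not give the dose and duration of Dox or whether the line is 1 clone. Nothing in the labels ties the replicates to separate cultures, and the p-values may therefore reflect technical spread alone.

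Galectin-4 is the product of LGALS4, a lectin with tandem carbohydrate-binding domains that binds galactose-containing sugars on glycoproteins and glycolipids, and it is made mainly by the epithelium of the digestive tract. Its known partners include O-glycans, which are started by GALNT enzymes, extended by the galactosyltransferase C1GALT1 and capped by sialyltransferases. Hypoxia-inducible factors are dimers of an oxygen-labile alpha subunit and ARNT. The alpha subunit is hydroxylated by EGLN enzymes and then marked for destruction by VHL, and when it is stable the dimer raises the RNA of glycolytic enzymes and of many other genes. In LNCaP cells androgen signalling also drives fatty acid synthesis and secretory genes.

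RNA levels were read on Illumina bead arrays and are given on the log2 scale after background correction and quantile normalization. Of 13680 genes tested, a gene is called at a limma adjusted p under 0.05, and an array reads a probe above background at a detection p under 0.05. Further probes are given for some genes only, whether or not they were above background, and a probe below it may miss a change. They were not looked up for every gene named. A gene given without them may thus have probes that changed by more or by less. The further probes of ADCY1, AGR2, ATF3, DYNC2LI1, ERBB2, GCNT2, MT1H, MTERF1, PFKP, PKIB, SHC1, SLC6A10P and VCX3B were above background on no LNCaP array. The 6 arrays read 19974 to 20415 of 47303 probes above background. Levels correlated at r = 0.993 to 0.994 among the Dox arrays and 0.985 to 0.992 among the no Dox arrays (across genes, which are not independent replicates). The median SD of a gene was 0.13 with Dox and 0.16 without. A main axis of the variation within groups, which held 24.8% of that variation over all 18 arrays, separated the conditions: the no Dox arrays scored -5.13, -14.5 and -3.35 and the Dox arrays 24.5, 25.2 and 26.7. With this axis subtracted from the values, a setting chosen after seeing the data, 2531 genes were called in place of 3809. With the score on it as a covariate 243 were called, and 5.83% of the main calls were kept.

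No Dox replicate 3 stood apart in a limited set of genes. On it, 158 genes lay over 1 log2 unit above both other no Dox arrays, and 0 lay that far below both. On the other 5 LNCaP arrays 0 to 4 genes lay that far above their partners. Of the 158, 148 were called higher with Dox in 22Rv1, where their median change was 1.66. Their median level relative to each gene's median over 18 arrays was 1.44 on LNCaP no Dox replicate 3, 0.07 and -0.07 on its partners, and 1.31, 1.12 and 0.60 on the 22Rv1 Dox arrays. It was -0.06, -0.47 and 0.02 on the LNCaP Dox arrays and 0.77, 0.85 and -0.04 on the 22Rv1-M4 scramble arrays, so the set varied between replicates in more than 1 group. In the LNCaP comparison 24 of the 158 were called lower and 2 higher. Without that array 0 were called lower, and their median change was -0.15 in place of -0.64. The cause was not tested. Genes of this kind that are named in the text (CREB1, GALNT3, HSD17B7, SULT1A1, MIGA1, SNAPC1 and CMKLR2) are given with and without the array.

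**Figure D1:**
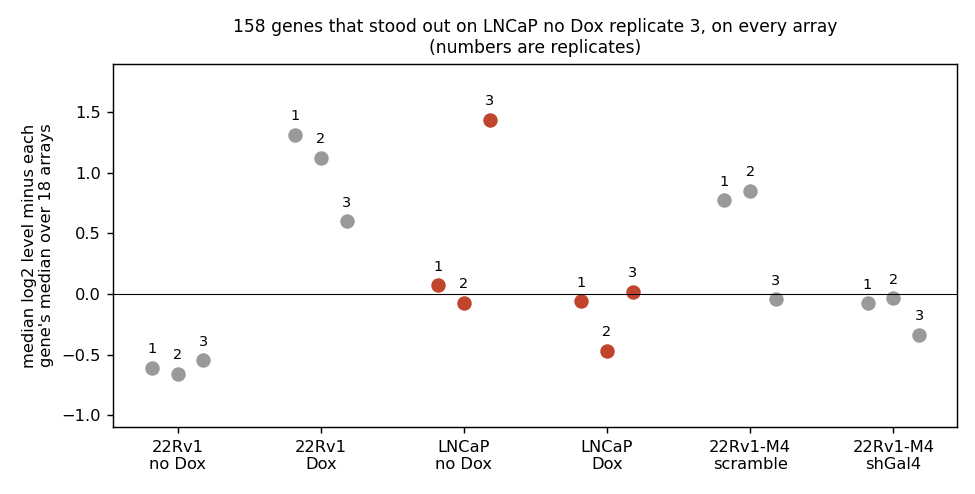
Median level, on the log2 scale and relative to each gene's median over 18 arrays, of the 158 genes that lay over 1 log2 unit above both partners on LNCaP no Dox replicate 3. Each point is an array (red, LNCaP; grey, 22Rv1 and 22Rv1-M4) and its number is the replicate; LNCaP no Dox replicate 3 lies at 1.44 and its partners at 0.07 and -0.07, and the set is also high on the 22Rv1 Dox arrays.

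LGALS4, the gene the construct is labelled to carry (chromosome 19, probe ILMN_1694034), was higher with Dox. The 3 no Dox arrays read 4.53, 4.64 and 4.57, above background on none of them, and the 3 Dox arrays 5.73, 6.79 and 6.96, above background on all. The groups did not overlap, and Dox replicate 1 was the lowest of its group by over a log2 unit. The rise was 1.92 (SE 0.21, limma adjusted p = 1.06e-05) and corresponded to at least 3.41-fold on the background-corrected values. This bound, like later ones, sets the mean of the Dox arrays against the mean over the no Dox arrays of the higher of 2 values, the lowest signal among probes above background and the probe's own. Without background correction the rise was 0.70 (limma adjusted p = 0.000347), so the bound holds only for the corrected values. Raw intensities, still with background, were 107.7, 116.7 and 112 without Dox and 144, 185.5 and 198 with it. These Dox intensities were low against the mean of 6160 that the same probe read in 22Rv1-M4 scramble cells. The sources used here do not say whether the probe reads the RNA made from the construct. In 22Rv1 cells with the same construct the LGALS4 change was -0.06 (SE 0.21, limma adjusted p = 0.874), and the responses of the lines differed by 1.98 (SE 0.30, limma adjusted p = 0.000111).

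In LNCaP with Dox, 3809 genes were called, 27.8% of those tested, with 1489 higher (10.9%) and 2320 lower (17.0%). Changes of 2-fold or more numbered 334 among the rises and 58 among the falls, and the median change was 0.73 among called rises and -0.56 among called falls. The 2-fold counts were 103 and 14 without background correction, 103 and 15 in the deposited matrix, 69 and 44 with the within-group axis subtracted and 57 and 14 with it as a covariate. The no Dox and Dox arrays did not overlap in 3714 of the called genes and in 6013 of all genes (44.0%). The median over all genes was -0.08. The share called depended on level. Of the 2736 genes of lowest mean level in LNCaP, 0.768% were called higher and 0.804% lower. Of the 2736 of highest mean level, 18.4% were called higher and 26.5% lower. The 1048 genes above background on no LNCaP array held 0 calls. Gene lists are set below against all genes, not genes of like level. This can overstate the excess of calls in lists of well-expressed genes and understate it in lists of dim ones. Without Dox replicate 3, 1396 genes were called lower, and without Dox replicate 2, 1517. The genes called lower by at least 2-fold numbered 94 without Dox replicate 1, 114 without no Dox replicate 1 and 101 without no Dox replicate 2. In bulk RNA, fewer cells of a kind and less RNA per cell cannot be told apart.

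The gene with the largest rise was TVP23C, which encodes a Golgi membrane protein. It read 6.55, 7.03 and 6.42 without Dox and 8.88, 9.33 and 9.56 with Dox, without overlap. A second probe, below background, changed by -0.01. The change was 2.59 (SE 0.30, limma adjusted p = 1.65e-05). Its relative TVP23B rose by 2.10, and the sequences of both are so alike that their probes may share signal. NAT1, an arylamine acetyltransferase that is also a marker of hormone-responsive breast epithelium, read 5.04, 5.30 and 4.60 without Dox and 6.91, 7.63 and 7.63 with it, again without overlap. The rise was 2.41 (SE 0.25, limma adjusted p = 4.94e-06), and 2 of the 3 no Dox arrays read NAT1 above background.

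PRKACB, which encodes a catalytic subunit of the cAMP-dependent kinase PKA, was at 7.69, 7.81 and 7.60 without Dox and at 9.76, 9.82 and 9.95 with it. The arrays of each condition lay close to each other, with a change of 2.14 (SE 0.18, limma adjusted p = 1.50e-06). Its other probes changed by 2.11, 1.43 and 0.83, and a last probe, below background, by 0.05. SELENOP, the secreted selenium carrier, was at 8.14, 8.29 and 8.06 without Dox and 9.90, 10.11 and 10.18 with Dox, a rise of 1.90 (SE 0.22) with no overlap and a second probe at 1.11. The histone H2A gene H2AC6 was at 7.09, 7.43 and 6.96 without Dox and 8.71, 9.16 and 9.35 with it (1.91, SE 0.23). RLN2, the peptide hormone H2 relaxin, rose by 1.96 (SE 0.30), and its second probe changed by 1.31.

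The other genes of largest rise were RWDD3, an enhancer of SUMO conjugation (1.96), TRAPPC13, a vesicle-tethering subunit (1.89), ID1, an inhibitor of basic helix-loop-helix factors (1.84, with a second probe at 0.36), DYNC2LI1, a light intermediate chain of the ciliary dynein (1.84, with a second probe at 0.11), and the readthrough transcript DNAJC25-GNG10 (1.82, with a second probe at 0.40). TWF1, an actin-binding protein (1.80), MRPL47, a mitochondrial ribosomal protein (1.75), and C3orf38 (1.74) completed them, and their second probes changed by 1.68, 1.28 and 1.76. The rule that picked these genes asked for Dox arrays that all lie above the no Dox arrays.

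**Figure D2:**
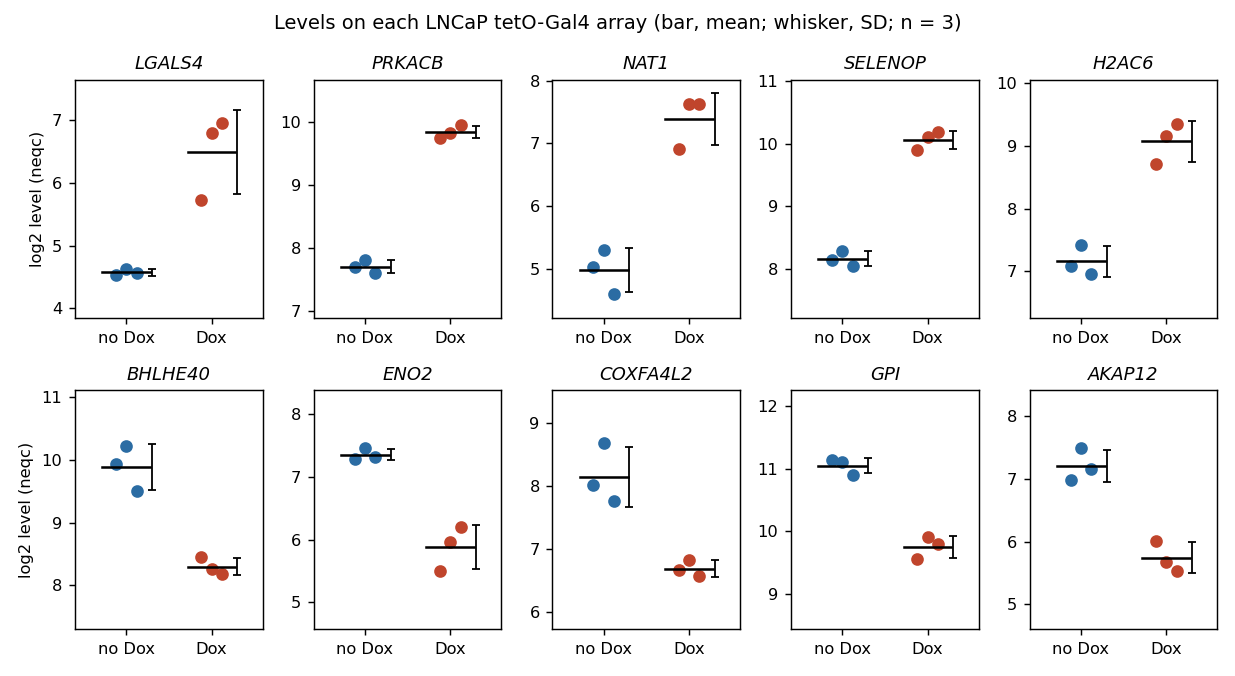
Log2 level after neqc on each LNCaP array (points, 3 without Dox in blue and 3 with Dox in red), with the group mean (bar) and SD (whisker), for LGALS4, 4 other genes that rose and 5 that fell. The groups lie apart in every panel, and the Dox arrays of LGALS4 and NAT1 have 1 low member.

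BHLHE40, a transcriptional repressor of the clock that hypoxia is known to raise, fell most. It read 9.94, 10.23 and 9.51 without Dox and 8.45, 8.27 and 8.19 with it, a fall without overlap. It fell by 1.59 (SE 0.18, limma adjusted p = 1.06e-05). ENO2, a glycolytic enolase also used as a neuroendocrine marker, was at 7.29, 7.45 and 7.31 without Dox and 5.50, 5.96 and 6.19 with it, and fell by 1.47 (SE 0.19, limma adjusted p = 4.19e-05). COXFA4L2 (older symbol NDUFA4L2), a mitochondrial protein induced by hypoxia, was at 8.01, 8.68 and 7.76 without Dox and 6.66, 6.83 and 6.57 with it, and fell by 1.46 (SE 0.24). GPI, the glycolytic phosphoglucose isomerase, went from 11.14, 11.10 and 10.90 to 9.55, 9.90 and 9.80 and fell by 1.30 (SE 0.18). STC1, a secreted glycoprotein induced by hypoxia, was at 6.68, 6.85 and 6.31 without Dox and 5.19, 5.09 and 5.37 with it, and fell by 1.40 (SE 0.14). These 5 were among the 15 largest falls, and all stand on the lists of hypoxia-induced or glycolysis genes.

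AKAP12, a scaffold that anchors protein kinase A, fell by 1.46 (SE 0.15) from 6.98, 7.48 and 7.15 to 6.01, 5.68 and 5.53, and its other probes changed by -0.93, -0.21 and 0.11. The X-linked testis genes VCX3B, VCX3A and VCX changed by -1.49, -1.47 and -1.41, with like sequences whose probes may share signal, and further VCX3A and VCX3B probes lay between -0.04 and 0.03. PEG3, an imprinted zinc finger gene, fell by 1.39, and the pseudogene SLC6A10P by 1.40 (second probe 0.05). Further falls rested on 1 of several probes. The metallothionein MT1H changed by -1.40 (second probe, below background, -0.03), NBPF9 by -1.39 (second probe 0.03) and the transcription factor NFIC by -1.36 (other probes -0.05, -0.10, -0.19 and -0.13). SLX4IP, a partner of a DNA repair nuclease scaffold, fell by 1.38 and was above background on 2 of 3 Dox arrays.

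Hypoxia-induced genes and glycolytic enzymes were lower with Dox. Of 39 hypoxia-induced genes tested, 18 fell, 2 rose and 19 were not called, with a median change of -0.42 against -0.08 over all genes. Of 22 genes of glycolysis and its control, 15 fell, 1 rose and 6 were not called, with a median of -0.66 (HK2 stands on both lists). The share called lower was thus 46.2% and 68.2%, against 17.0% of all genes and 26.5% of the 2736 genes of highest mean level. The list medians, relative to the no Dox mean of each gene, were -0.56, -0.42 and -0.42 for hypoxia-induced genes on the 3 Dox arrays and -0.78, -0.60 and -0.53 for glycolysis. On the no Dox arrays they lay between -0.16 and 0.19 for the first list and between -0.08 and 0.10 for the second. Leaving out any single array left 15 to 19 of the hypoxia-induced genes and 13 to 16 of the glycolysis genes lower. With the within-group axis subtracted, 17 and 10 were lower, and with it as a covariate 3 and 4. Under both uses of the axis the medians were -0.35 and -0.30. In the deposited log2 matrix 13 glycolysis genes were lower and 4 higher, with a median of -0.39. Without background correction 16 were lower and 1 higher (median -0.57). For the hypoxia-induced genes the deposited matrix gave 21 lower and 3 higher (median -0.27).

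Every step from glucose entry to pyruvate had a member that fell, except those of TPI1 and PGAM1, and GPI and ENO2 led. The glucose transporter SLC2A1 fell by 0.50, and the hexokinases HK1 and HK2, which trap glucose, by 0.66 and 0.67. All 3 phosphofructokinase subunits, the committed step, were lower: PFKP by 1.09 (its second probe changed by -0.03), PFKM by 0.69 and PFKL by 0.65. The aldolases ALDOA and ALDOC fell by 0.97 and 0.91. GAPDH, widely used as a reference gene, fell by 0.84. PGK1 and PKM, the ATP-making kinases, fell by 0.58 and 0.63. PDK3 and PDK1, kinases that shut off pyruvate dehydrogenase, fell by 1.03 and 0.78. LDHB, the lactate dehydrogenase subunit of oxidative tissue, rose: it was at 10.86, 10.91 and 10.63 without Dox and at 11.69, 11.51 and 11.48 with it, a change of 0.76 (SE 0.16, limma adjusted p = 0.00168) with no overlap. Not called were LDHA (-0.27), ENO1 (-0.35), ENO3 (-0.31), TPI1 (-0.12) and PGAM1 (0.14).

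Beyond glycolysis, PFKFB4 and PFKFB3, which make the activator of phosphofructokinase, fell by 1.15 and 1.07, and LOX, a secreted oxidase that cross-links collagen, by 1.15 (above background on 1 of 3 Dox arrays). AK4, a mitochondrial adenylate kinase, fell by 0.99, and PLOD2 and PLOD1, collagen lysyl hydroxylases, by 0.89 and 0.83. The histone demethylases KDM3B, KDM4B and KDM3A fell by 0.59, 0.54 and 0.50, and NDRG1, also a target of androgen, by 0.72. The remaining called falls were ZNF395 (-0.89), WSB1 (-0.80), EGLN3 (-0.72) and TMEM45A (-0.42). Several of the best-known targets were not called, namely VEGFA, the angiogenic factor (0.05), BNIP3, a mitophagy receptor (-0.04), ADM, the peptide adrenomedullin (-0.39), DDIT4 (-0.42) and P4HA1 (0.37). ANKRD37 rose by 0.97 (limma adjusted p = 0.0155) from 9.17, 8.68 and 9.20 to 9.92, 9.98 and 10.08, and EGLN1, the main oxygen-sensing hydroxylase, rose by 0.47 (limma adjusted p = 0.0351). With the within-group axis subtracted ANKRD37 changed by 0.05 and EGLN1 by 0.23, neither called. Without Dox replicate 3 or no Dox replicate 2 ANKRD37 was not called (0.93 and 0.81). EGLN1 was not called without any one of the arrays except no Dox replicate 2 (0.36 to 0.51). NDRG1 was not called without Dox replicate 1 (-0.56) or no Dox replicate 2 (-0.62).

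**Figure D3:**
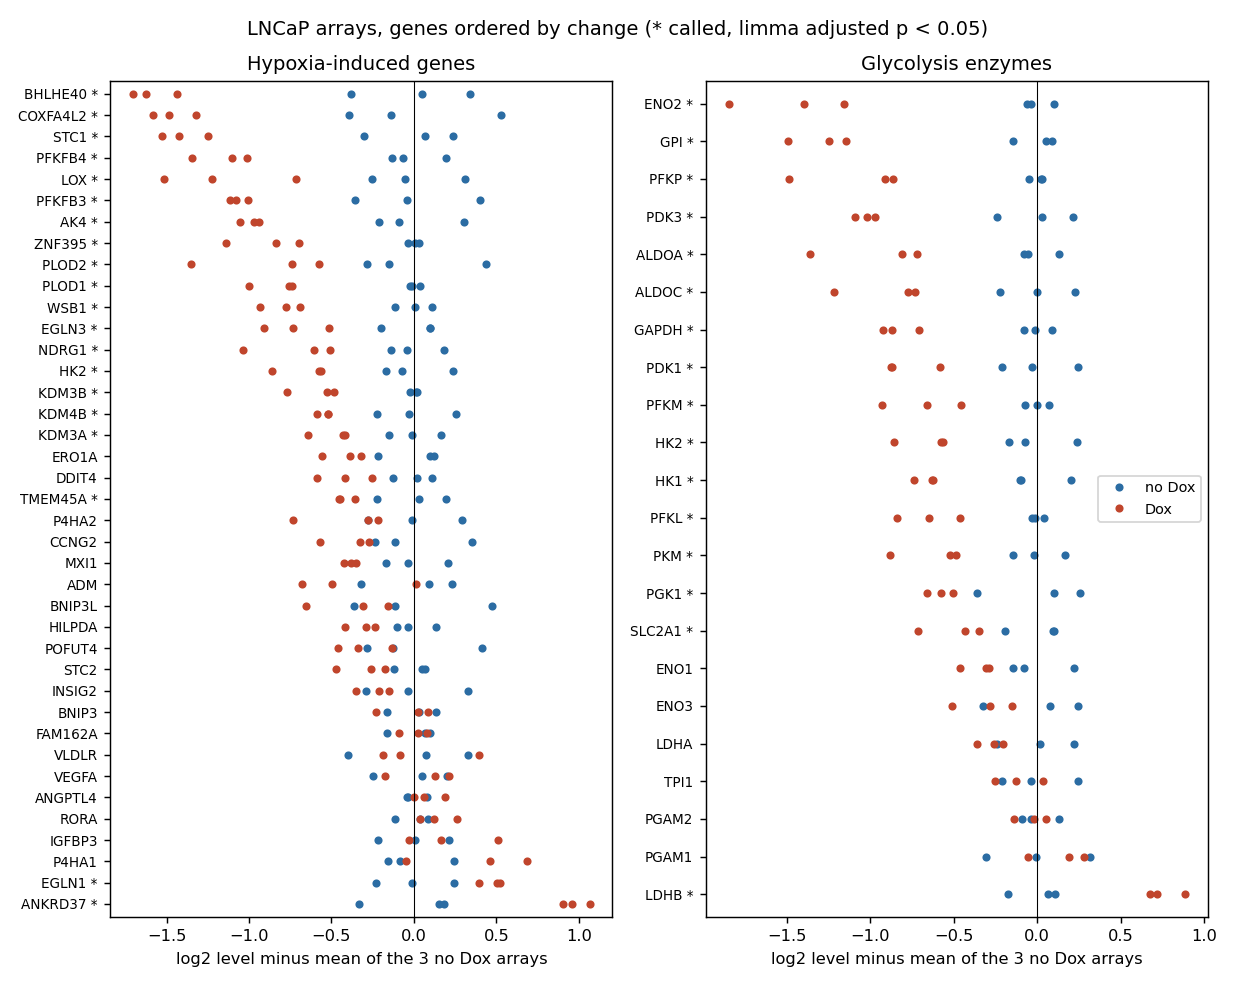
Level of each tested member of the hypoxia-induced (left, 39 genes) and glycolysis (right, 22 genes) lists on the 6 LNCaP arrays, on the log2 scale relative to the mean of the 3 no Dox arrays (blue, no Dox; red, Dox). Genes run from the largest fall to the largest rise and an asterisk marks a call; the Dox arrays of ENO2, GPI and BHLHE40 lie far to the left, and those of LDHB and ANKRD37 to the right.

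Among the HIF subunits and their regulators, 9 were tested, EGLN3 and VHL fell and EGLN1 rose. HIF1A, the main alpha subunit, was at 7.93, 8.40 and 8.26 without Dox and 7.77, 7.79 and 7.44 with it. These groups lay apart by a small margin, and the change of -0.53 (SE 0.22) was not called (limma adjusted p = 0.0729), while the other HIF1A probes changed by 0.36 and 0.31. ARNT, the partner subunit, changed by -0.33 and was not called. VHL, the ligase subunit that removes HIF alpha, fell by 0.65 on the probe used, with its other probes at 0.50 and -0.47. RNA levels do not report the amount or stability of HIF proteins.

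To set the falls beside sequence, the upstream promoters of 4 genes are shown. They were taken from the largest falls of the hypoxia and glycolysis lists alone, and larger falls outside these lists were not eligible. The choice also left out 1 chromosome, and STC1, which fell more than GPI, is not among them. Each is 250 bases before the annotated start, from RefSeq (GRCh38.p14), read 5′ to 3′ on the gene's strand. Capitals mark the core letters of the hypoxia response element, ACGTG or GCGTG, on either strand (thus also CACGT or CACGC).
BHLHE40: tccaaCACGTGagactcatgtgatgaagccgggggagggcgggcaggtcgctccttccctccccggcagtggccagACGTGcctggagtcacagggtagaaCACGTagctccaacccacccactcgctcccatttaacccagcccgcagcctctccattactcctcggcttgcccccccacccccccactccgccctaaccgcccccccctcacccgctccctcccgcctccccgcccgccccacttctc
ENO2: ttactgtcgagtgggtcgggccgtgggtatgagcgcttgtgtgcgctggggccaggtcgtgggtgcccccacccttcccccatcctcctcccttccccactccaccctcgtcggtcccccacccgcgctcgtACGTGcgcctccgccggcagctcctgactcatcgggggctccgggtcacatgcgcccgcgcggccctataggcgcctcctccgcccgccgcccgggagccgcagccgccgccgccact
COXFA4L2: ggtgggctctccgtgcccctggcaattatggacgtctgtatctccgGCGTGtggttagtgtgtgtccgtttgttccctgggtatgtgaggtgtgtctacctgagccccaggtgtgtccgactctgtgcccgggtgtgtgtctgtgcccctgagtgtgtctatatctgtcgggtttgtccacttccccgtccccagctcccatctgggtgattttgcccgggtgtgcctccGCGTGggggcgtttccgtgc
GPI: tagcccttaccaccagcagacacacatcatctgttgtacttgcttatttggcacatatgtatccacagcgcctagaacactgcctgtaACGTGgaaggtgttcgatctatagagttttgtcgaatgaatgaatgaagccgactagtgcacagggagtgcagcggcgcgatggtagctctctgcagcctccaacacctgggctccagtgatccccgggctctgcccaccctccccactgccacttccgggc
The BHLHE40 window (chr3:4979187-4979436, + strand) held 4 matches, the first a palindrome read on both strands, which is also an E-box. ENO2 (chr12:6914330-6914579, + strand) held 1, COXFA4L2 (chr12:57240763-57241012, - strand) held 2 and GPI (chr19:34364742-34364991, + strand) held 1. Such short letters are common: 62.1% of 10801 promoters of tested genes (300 bases each, 50 of them after the start) held ACGTG or GCGTG, as did 62.3% of those called higher and 65.9% of those called lower. The share was 77.8% of 54 promoters of the hypoxia and glycolysis lists and 75.9% of the 29 among them called lower. For ACGTG alone the shares were 26.6%, 28.1%, 29.0%, 48.1% and 48.3% in the same order. The median GC content was 64.7% over all these promoters and 68.3% over both lists, and a match is only a description of the letters.

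In 22Rv1 with Dox, the same lists moved the other way. The 22Rv1 Dox comparison used other arrays and called 24.8% of genes, 9.14% higher and 15.7% lower. Of the 39 hypoxia-induced genes, 31 were higher and 1 lower in 22Rv1, with a median of 0.87, and of the 22 glycolysis genes 9 were higher and 1 lower (median 0.34). The test of the difference between both responses called 18.8% of all genes, 9.39% as higher in LNCaP and 9.42% as lower. It called 31 of the 39 as lower in LNCaP than in 22Rv1 and 1 as higher. It called 17 of the 22 glycolysis genes as lower in LNCaP and 2 as higher. For BHLHE40 the changes were -1.59 in LNCaP and 1.54 in 22Rv1, a difference of -3.13 (limma adjusted p = 5.26e-08). For VEGFA they were 0.05, not called, and 1.73, a difference of -1.67 (limma adjusted p = 5.39e-05). ENO2 changed by -1.47 in LNCaP and 0.19 in 22Rv1, a difference of -1.66 (limma adjusted p = 0.000196).

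**Figure D4:**
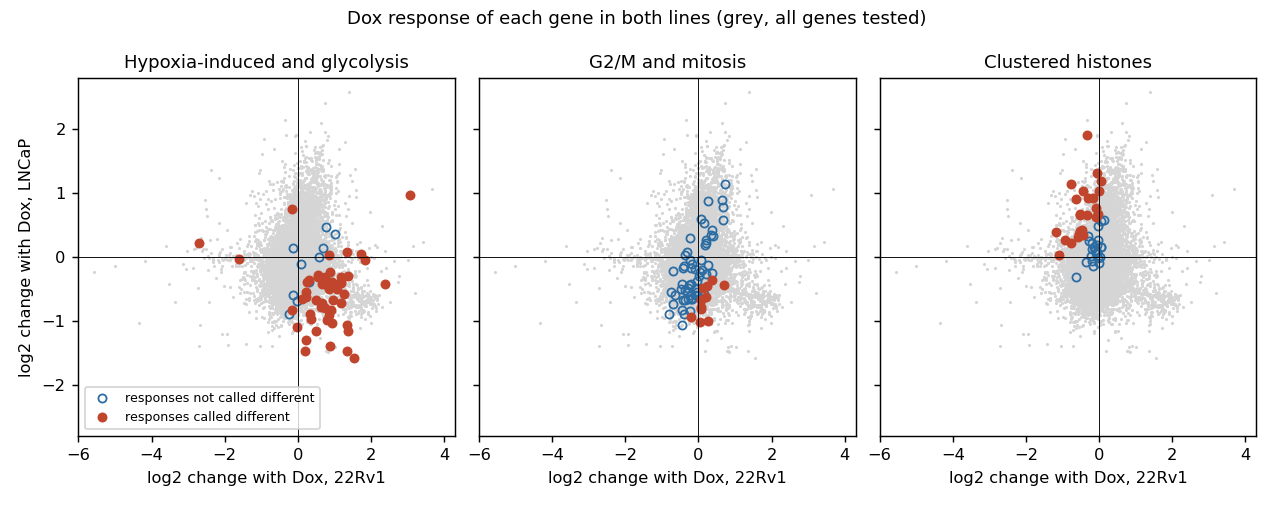
Log2 change with Dox of every gene tested in 22Rv1 (horizontal) and LNCaP (vertical), n = 3 and 3 arrays in each line, drawn in grey in each of 3 panels, with members of the hypoxia and glycolysis (left), G2/M (middle) and histone (right) lists marked (filled red, difference between the responses called by limma; open blue, not called). Most hypoxia and glycolysis members lie at the lower right, most G2/M members below the horizontal line and most histones above it.

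Over all genes the responses of the lines overlapped in part. The 1087 genes called in both were 28.5% of the LNCaP calls and 32.0% of the 22Rv1 calls. Of them 202 were higher and 585 lower in both, 81 were higher in LNCaP and lower in 22Rv1, and 219 lower in LNCaP and higher in 22Rv1. ALB, serum albumin, changed by -0.24 in LNCaP and -5.56 in 22Rv1, a difference of 5.32. ERBB2, the receptor HER2, changed by -0.39 in LNCaP and 2.74 in 22Rv1, a difference of -3.14. Genes called in opposite directions included AGR2, a secretory disulfide isomerase (1.37 in LNCaP, -2.38 in 22Rv1, with its second probe at -0.10 in LNCaP), SYT4, a vesicle protein (0.89 and -2.53), DDIT4L (1.24 and -2.14) and ITGA5, the fibronectin receptor subunit (-0.57 and 3.21). The ITGA5 fall in LNCaP was not called without Dox replicate 3 (-0.49) or no Dox replicate 2 (-0.52). MAPT, the microtubule protein tau, fell by 0.79 in LNCaP (other probes -0.02 to 0.15) and rose by 2.29 in 22Rv1. MIGA1 changed by -1.03 in LNCaP (second probe -0.04) and -0.59 without no Dox replicate 3, and it was also not called without Dox replicate 1 (-1.03, limma adjusted p = 0.0543) or Dox replicate 2 (-0.87, limma adjusted p = 0.0983). Without no Dox replicate 3 its limma adjusted p was 0.163. SNAPC1 changed by -0.84 (second probe 0.28) and without that array by -0.26, and CMKLR2 by -0.70 and -0.07, neither called in either case.

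Genes of mitosis were lower with Dox. Of 69 genes of G2/M and mitosis, 35 fell (50.7%), 6 rose (8.7%) and 28 were not called, with a median of -0.43. Over all genes 17.0% fell and 10.9% rose. The mitotic kinases led. AURKB, of the chromosomal passenger complex, was at 8.94, 8.81 and 8.89 without Dox and at 8.19, 7.76 and 7.48 with it, and fell by 1.07 (SE 0.20). PLK1, which drives spindle assembly, was at 7.28, 7.07 and 7.08 without Dox and at 6.35, 6.00 and 6.02 with it, and fell by 1.02 (SE 0.14, limma adjusted p = 6.68e-05). CENPF, a kinetochore protein, fell by 1.00, AURKA by 0.94, the phosphatase CDC25B by 0.89, the survivin gene BIRC5 by 0.82 and FOXM1, a transcription factor of this gene set, by 0.74. TOP2A and MKI67, used as markers of proliferation, fell by 0.68 and 0.55. The groups did not overlap in AURKB, PLK1 or CENPF, and in AURKB, PLK1 and CENPF Dox replicate 1 was the least lowered.

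The 6 that rose were MAD2L1, of the spindle checkpoint, at 9.80, 9.56 and 9.83 without Dox and 11.05, 10.88 and 10.68 with it (1.14, SE 0.20, second probe 0.85), the kinetochore genes NUF2 (0.89, other probes 1.63 and 0.80) and CENPN (0.59), the checkpoint kinase TTK (0.89), and CDK1 (0.79) with its partner CKS1B (0.54). The mitotic list thus held genes that moved in opposite directions. Its median over the members was -0.20, -0.47 and -0.59 on Dox replicates 1, 2 and 3, and without Dox replicate 3 the count of falls was 22. With the within-group axis subtracted it was 24, with 2 rises. In 22Rv1, 10 of these genes were lower and 5 higher, and the difference between the lines was called in 11, each lower in LNCaP. Over all genes 15.7% were lower and 9.14% higher in 22Rv1, and 9.42% were called lower in LNCaP in the difference.

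Of 57 genes of DNA replication and G1/S, 26 fell (45.6%) and 4 rose (7.02%), against 17.0% and 10.9% of all genes, with a median of -0.35. CCND1, cyclin D1, was at 10.74, 11.05 and 10.85 without Dox and at 9.94, 9.96 and 9.99 with it, and fell by 0.92 (SE 0.17, limma adjusted p = 0.000656) without overlap. CHAF1A, a histone chaperone of the replication fork, fell by 0.86. POLA1, the catalytic subunit of the initiating polymerase, fell by 0.85 (second probe 0.002). MCM10 fell by 0.82, RRM1, of ribonucleotide reductase, by 0.79 and MCM7, of the replicative helicase, by 0.72. RAD51AP1, a recombination factor, rose by 0.89 and PRIM1, the primase, by 0.84. The 4 rises became 1 without Dox replicate 1 and 2 without Dox replicate 3 or no Dox replicate 3. E2F1 (-0.02), PCNA (-0.09) and CCNE1 (-0.14) were not called. The count of falls on this list depended on the setting, with 13 without Dox replicate 3, 13 with median scaling and 9 with the axis subtracted. Over all genes the falls went from 2320 to 1396, 1139 and 1322 in the same order. In 22Rv1, 32 of the 57 were lower, and the difference between the lines was called in 7. CDKN1A, the cell cycle inhibitor, was at 9.94, 10.02 and 9.72 without Dox and 9.36, 9.86 and 9.95 with it, with overlap, and MYC changed by -0.27, and neither was called.

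Genes of fatty acid synthesis and storage fell in 16 of 31 cases (51.6%, against 17.0% of all genes) and rose in 0. The median was -0.46. FASN, the fatty acid synthase, was at 12.44, 12.79 and 11.72 without Dox and at 11.51, 11.31 and 11.09 with it. The highest Dox array lay just below the lowest no Dox array, and FASN fell by 1.02 (SE 0.25, limma adjusted p = 0.00474). SCD, the stearoyl-CoA desaturase, fell by 1.00 (12.24, 12.68 and 12.07 without Dox, 11.54, 11.28 and 11.18 with it). ACLY, which makes cytosolic acetyl-CoA, fell by 0.69 (second probe -0.26), the carboxylases ACACB and ACACA by 0.64 and 0.61, and SREBF1, the transcription factor of this pathway, by 0.61. FADS1, a desaturase, fell by 0.67 and LPIN1, a phosphatidate phosphatase, by 0.65. CPT1A, the gate of mitochondrial fat burning (-0.09), and the droplet protein PLIN2 (-0.04) were not called. With median scaling 7 were lower, and with the axis subtracted 3 were lower and 1 higher.

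Cholesterol genes were mixed. Of 22 tested, 6 fell (27.3%) and 2 rose (9.09%), against 17.0% and 10.9% of all genes. The median was -0.24, and without Dox replicate 2 or Dox replicate 3, 3 fell. INSIG1, a sensor that restrains SREBP, fell by 0.76, CYP51A1, the lanosterol demethylase, by 0.68, and HMGCS1, an early enzyme, by 0.66. SC5D, a late desaturase, rose from 8.47, 8.29 and 7.94 to 9.21, 9.53 and 9.76 (1.27, SE 0.22, limma adjusted p = 0.000516) and IDI1, the isopentenyl isomerase, by 0.86, both without overlap. HSD17B7 changed by -0.89, and by -0.53 (limma adjusted p = 0.136) without no Dox replicate 3. It was also not called without Dox replicate 2 (-0.77, limma adjusted p = 0.0823). SQLE (-0.04), LSS (-0.33) and SREBF2 (-0.27) were not called.

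Nuclear genes of the mitochondrial ribosome were higher more often than lower. Of 78 tested, 28 rose (35.9%), 7 fell (8.97%) and 43 were not called, with a median of 0.25. Over all genes 10.9% rose and 17.0% fell, and over the 2736 genes of highest mean level 18.4% rose and 26.5% fell. The list included LACTB and KGD4, which were once named as ribosomal proteins and are no longer counted as such, and both rose. MRPL47 was at 8.22, 7.70 and 8.09 without Dox and at 9.72, 9.81 and 9.74 with it, a rise of 1.75 (SE 0.27). MRPS23 rose by 1.20, MRPL30 by 1.18 and MRPS18C by 1.11, while MRPL10 (second probe 0.08), MRPL37 and MRPS18B fell by 0.76, 0.66 and 0.55. With the axis subtracted, 10 rose and 4 fell, and the median was -0.01. Without Dox replicate 3, 4 fell.

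In the respiratory chain, 17 of 40 genes of complexes II to V rose and 4 fell (42.5% and 10%, median 0.23). Of 35 complex I genes, 9 rose and 7 fell (25.7% and 20%, median 0.14). Over all genes the shares were 10.9% and 17.0%, and over the 2736 genes of highest mean level 18.4% and 26.5%. ATP5MK and ATP5F1E, small subunits of ATP synthase, rose by 1.24 and 1.13, UQCRB, of complex III, by 1.20 (10.62 to 11.00 without Dox, 11.89 to 12.10 with it) and NDUFS4, an accessory complex I subunit, by 1.12 (10.84 to 10.95 without Dox, 11.92 to 12.05 with it). SDHA, the catalytic subunit of complex II, fell by 0.60 (second probe -0.21) and COX8A by 0.54. NDUFV1 and NDUFS8, which carry the electron-accepting core of complex I, fell by 0.76 and 0.73. Without no Dox replicate 3, 11 of the 40 rose and 2 fell, and with the axis subtracted 6 rose and 2 fell. Without Dox replicate 3 or no Dox replicate 1, 1 of the 40 and 4 of the 35 fell. Mitochondrial translation and genome upkeep had 9 rises (23.7%) and 6 falls (15.8%) among 38 genes. MTERF1, a termination factor, rose by 1.11 (second probe 0.02). TFB2M, a transcription factor of mitochondrial DNA, rose by 1.00, and its relative TFB1M was lower (-0.71). Without no Dox replicate 3, 5 of the 38 rose, and without Dox replicate 3, 3 fell. Of 69 cytosolic ribosomal proteins, 8 rose and 6 fell (median -0.02), shares of 11.6% and 8.70% against 10.9% and 17.0% of all genes. Leaving out single arrays lowered these counts, to as few as 3 rises (without Dox replicate 2 or Dox replicate 3) and 1 fall (without no Dox replicate 2).

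Called falls were more frequent among genes with a longer span on the genome. In steps of 20% from the shortest genes to the longest, 10.5%, 14.9%, 17.7%, 20.6% and 21.2% fell. In the same order 12.5%, 12%, 11.8%, 11.5% and 6.73% rose. The share of rises was thus nearly level except among the longest 20% of genes, where it was lower. The median span was 21220 bases for called rises, 35769 for called falls and 25887 over all genes. Among 988 tested genes that are not protein-coding, 145 rose and 42 fell. Over all 13680 genes falls outnumbered rises, with 1489 higher (10.9%) and 2320 lower (17.0%). The part of gene length in the results was not tested.

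Genes of the histone clusters were higher with Dox. Most are replication-dependent histones, whose mRNAs typically end in a stem-loop in place of a poly(A) tail. Of 47 tested, 19 rose (40.4%, against 10.9% of all genes), 0 fell and 28 were not called, with a median of 0.33. H2AC6 rose by 1.91 and H2AC25 by 1.32 (8.58, 7.94 and 8.53 without Dox, 9.26, 9.81 and 9.93 with it). H2AC7 was above background on none of the no Dox arrays (4.44, 4.57 and 4.48) and on all Dox arrays (5.55, 5.83 and 5.69), a rise of at least 1.95-fold. H2BC5 rose by 1.14, H2BC11 and H2BC8 by 1.04 each and H4C11 by 0.93. Histone sequences are alike, so probes may share signal. Leaving out any single array left 13 to 19 rises and 0 falls, and subtracting the axis left 13 rises and 3 falls. In 22Rv1 0 rose and 13 fell (median -0.19), and the difference between the lines was called in 24, each higher in LNCaP. Genes of DNA replication, which accompany histone synthesis in the cell cycle, were lower in the same samples.

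Small noncoding RNAs rose in 16 of 35 cases (45.7%, against 10.9% of all genes) and fell in 0, with a median of 0.66. They were SNORA8 (1.64), SNORA24 (1.51), SNORD3D (1.39), RNY5 (1.38), SNORA12 (1.37), the spliceosomal RNU4-2 (1.20), the vault RNA VTRNA1-1 (1.12), RN7SK (0.82), RNU1-1 (0.63) and 7 others. SNORA8 was at 6.08, 5.82 and 5.94 without Dox and at 7.37, 7.60 and 7.79 with it, without overlap. Most of these RNAs have no poly(A) tail, and the no Dox arrays differed among themselves, with list medians of 0.05, -0.35 and 0.33. The count of rises was 9 without Dox replicate 3, 9 without no Dox replicate 2 and 5, with 1 fall, when the axis was subtracted.

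**Figure D5:**
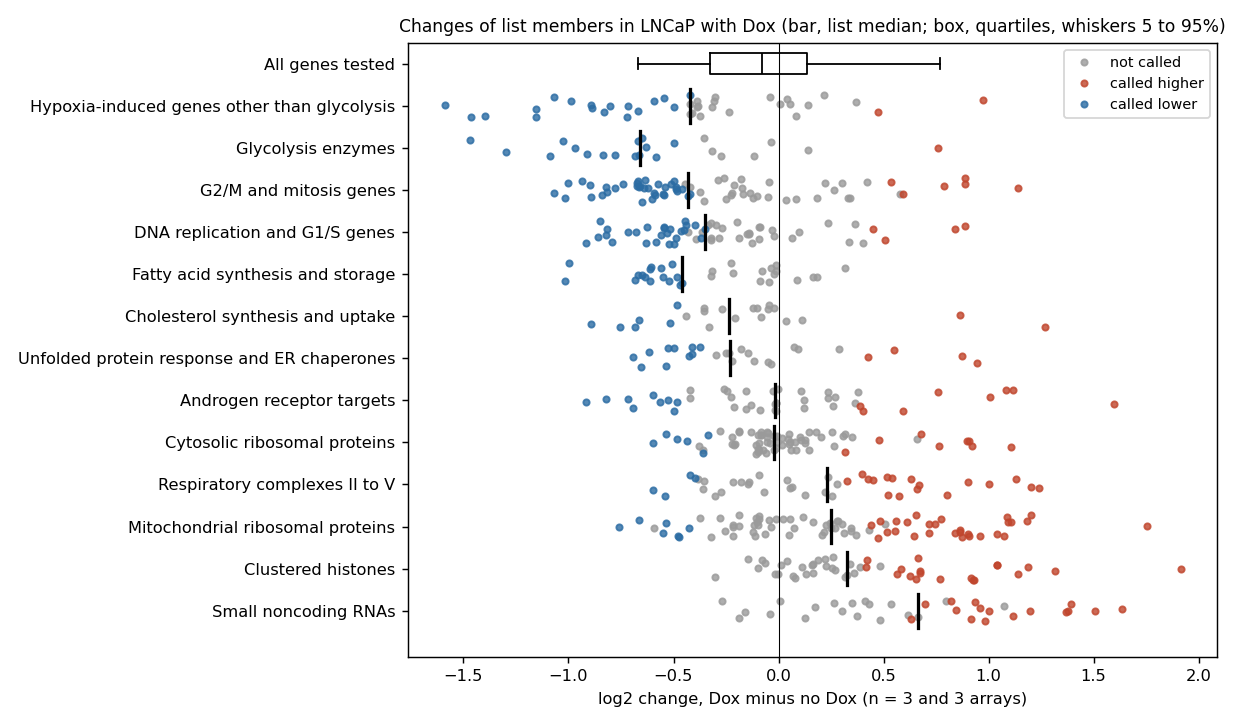
Log2 change with Dox (3 against 3 arrays) of each tested member of 13 gene lists in LNCaP, coloured by call, with the list median as a bar, beside a box of all 13680 genes (median -0.08). Glycolysis has its median at -0.66 and small noncoding RNAs at 0.66, and cytosolic ribosomal proteins lie at -0.02.

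Stress pathways were split. Of 26 genes of the unfolded protein response, 10 fell (38.5%) and 4 rose (15.4%), against 17.0% and 10.9% of all genes. The median was -0.23. The chaperones HSPA5 (-0.69), HSP90B1 (-0.43) and CALR (-0.41) and the secreted MANF (-0.66) fell. DERL2 and SEC11C, of endoplasmic reticulum protein disposal and signal cleavage, rose by 0.95 (second probe 0.07) and 0.87. Without any one of the Dox arrays, 6 fell, and with the axis subtracted 6 fell and 2 rose. Of 38 genes of the ATF4 and amino acid response, 10 rose (26.3%) and 5 fell (13.2%), with a median of 0.09. With the axis subtracted 18 rose and 1 fell (median 0.30). DDIT3, the stress transcription factor CHOP, was at 6.90, 6.70 and 6.61 without Dox and at 8.11, 8.40 and 8.67 with it. It rose by 1.66 (SE 0.23, limma adjusted p = 7.13e-05) without overlap, against 0.11 in 22Rv1, a difference of 1.55 (limma adjusted p = 0.00184). PSPH, of serine synthesis, rose by 0.81, NUPR1 by 0.79 and CEBPB by 0.71, ATF4 itself by 0.33, and GDF15, a secreted stress signal, fell by 0.73. ASNS (0.10) and PSAT1 (0.09), standard ATF4 targets, were not called. The ATF4 list had 5 rises without Dox replicate 2, and 2 falls without no Dox replicate 2 and 3 without Dox replicate 2, Dox replicate 3, no Dox replicate 1 or no Dox replicate 3.

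Among 26 p53 targets 5 rose, led by TIGAR, which lowers glycolytic flux (1.29, from 5.83, 5.54 and 5.63 to 6.74, 7.03 and 7.08), and TRIAP1 (0.89), and 4 fell, among them BAX (-0.53, other probes 0.06 and -0.07) and TP53INP1 (-0.58). MDM2 (0.26) and CDKN1A (-0.17) were not called. Of 28 NRF2 targets and glutathione genes 3 rose, the redox protein TXN by 0.77, NFE2L2 by 0.66 and SLC7A11 by 0.42, and TKT, of the pentose phosphate pathway, fell by 0.69. NQO1 (0.06) and HMOX1 (0.01) were not called. Proteasome subunits divided, with 7 of 27 higher and 5 lower: PSMC6 rose by 1.54 (9.73 to 9.89 without Dox, 11.32 to 11.40 with it) and PSMA3 by 1.34, and PSMB6 fell by 0.77. Ribosome biogenesis had 10 falls, such as GAR1 (-0.54, other probes -0.30 to 0.01), NCL (-0.47) and FBL (-0.45), and 4 rises, such as EMG1 (0.94), among 43. Without Dox replicate 2 or Dox replicate 3, 5 of these fell, and without no Dox replicate 2, 6. With the axis subtracted 4 fell and 2 rose. Without Dox replicate 1 or no Dox replicate 1, 2 of the p53 targets fell. The shares higher and lower were 19.2% and 15.4% for p53 targets and 10.7% and 3.57% for the NRF2 list. They were 25.9% and 18.5% for the proteasome and 9.3% and 23.3% for ribosome biogenesis, against 10.9% and 17.0% of all genes.

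Signalling genes moved singly. ID1, ID2 and ID3, targets of bone morphogenetic protein signalling that block differentiation factors, were the called rises among 32 genes of the BMP and TGF-beta pathways. ID2 was at 6.71, 6.29 and 6.30 without Dox and at 7.41, 8.08 and 7.75 with it, a rise of 1.31 (SE 0.24, second probe 1.19). ID1 was at 6.73, 6.09 and 6.68 and then 7.83, 8.70 and 8.50, and ID3, which rose by 0.99 (limma adjusted p = 0.0158), at 8.02, 7.42 and 7.85 and then 8.29, 9.11 and 8.87. The groups did not overlap in any of them, and Dox replicate 1 and no Dox replicate 2 were the lowest of their groups in ID1 and ID3. In 22Rv1 ID1, ID2 and ID3 changed by -0.94, -1.06 and -0.95, and the lines differed by 2.78, 2.37 and 1.94, each called. The receptors TGFBR3 and BMPR2 fell by 0.89 and 0.70 and BAMBI, a decoy receptor, by 0.43, of which 1 was left without Dox replicate 1 or no Dox replicate 2. ID3 was not called without Dox replicate 2 (0.81), Dox replicate 3 (0.94) or no Dox replicate 2 (0.82). SMAD7 (0.36) and SMAD6 (0.18), feedback targets of the pathway, were not called. Of this list 9.38% were called in each direction, against 10.9% higher and 17.0% lower over all genes.

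EGFR, the epidermal growth factor receptor, was at 6.93, 7.30 and 6.79 without Dox and at 5.84, 5.72 and 5.95 with it. It fell by 1.17 (SE 0.18, limma adjusted p = 0.000233) without overlap, while its other probes changed by -0.40 and, below background, by 0.06 and 0.03. Of 19 genes of the ERBB and IGF receptors, 4 fell and 0 rose, the others being IGF2R (-0.71), the adaptor SHC1 (-0.58, other probes 0.06 and -0.05) and ERBB2 (-0.39, other probes 0.10 and 0.09). The 4 falls were 21.1% of this list, near the 17.0% over all genes. Without Dox replicate 2, Dox replicate 3 or no Dox replicate 2, 2 fell, and ERBB2 was not called without any one of the arrays (-0.43 to -0.36). Protein kinase A genes had 4 rises and 8 falls among 35, shares of 11.4% and 22.9% that lie near the 10.9% and 17.0% over all genes. Beside PRKACB, the inhibitors PKIB and PKIG rose by 0.75 and 0.72 (their other probes between 0.03 and 0.04) and the cAMP-responsive CREM by 0.67. Without Dox replicate 2 or no Dox replicate 3, 5 fell. The regulatory subunit PRKAR1A fell by 0.55 and adenylate cyclase ADCY1 by 0.63 (second probe -0.09). CREB1 changed by -0.62 (1 of 5 other probes fell further and the rest lay between -0.60 and 0.06), and by -0.44 (limma adjusted p = 0.0942) without no Dox replicate 3. It was also not called without Dox replicate 2 (-0.47, limma adjusted p = 0.094). Of 31 immediate early and ERK feedback genes, JUNB (0.62, above background on 1 of 3 no Dox arrays) and ATF3 (0.52, other probes 0.01 and -0.07) rose and JUND (-0.80), KLF6 (-0.64), SPRY1 (-0.53) and SPRED2 (-0.42) fell, while EGR1 (-0.23) and DUSP6 (0.10) were not called. Without Dox replicate 2, no Dox replicate 2 or no Dox replicate 3, 1 rose, and without Dox replicate 3, 2 fell. With all arrays 6.45% of this list were higher and 12.9% lower, against 10.9% and 17.0% of all genes.

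Of 41 genes of O-glycan and sialic acid synthesis, which build sugars that galectins bind, 5 rose and 6 fell (median -0.16). These shares, 12.2% and 14.6%, were near the 10.9% and 17.0% over all genes. SLC35A1, which carries CMP-sialic acid into the Golgi, rose by 1.31 (SE 0.24, limma adjusted p = 0.00078), from 6.57, 6.29 and 6.48 to 7.49, 7.84 and 7.93. C1GALT1, the galactosyltransferase of the common O-glycan core, was at 6.08, 5.97 and 5.89 without Dox and at 6.99, 7.19 and 7.13 with it, a rise of 1.13 (SE 0.20). Its chaperone C1GALT1C1, without which it is not active, rose by 1.00 (9.56, 9.67 and 9.26 to 10.49, 10.49 and 10.54), with other probes at 1.13 and -0.05. GALNT1, an initiating enzyme, rose by 0.79. The groups did not overlap in SLC35A1, C1GALT1 or C1GALT1C1. The sialyltransferases ST3GAL3 (second probe -0.27) and ST3GAL4 fell by 0.67 and 0.55, and the branching enzyme GCNT2 by 0.65 (other probes -0.03 to 0.08). Without Dox replicate 3, 2 fell. GALNT3 changed by -0.97, and by -0.47 (limma adjusted p = 0.302) without no Dox replicate 3. It was also not called without Dox replicate 1 (-1.08), 2 (-0.73) or 3 (-1.12), with limma adjusted p from 0.0541 to 0.191. The lines were not shown to differ in C1GALT1 (difference 0.52, limma adjusted p = 0.221).

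Among 12 galectins and their ligands, LGALS4 and LGALS12 (0.36) rose and LAMP1, a lysosomal glycoprotein, fell by 0.55. LGALS12 was not called without any one of the arrays except Dox replicate 3 (0.29 to 0.40), and LAMP1 was not called without Dox replicate 3 or no Dox replicate 2. LGALS1 (0.11), LGALS8 (-0.32) and LAMP2 (-0.45) were not called. Of 35 Golgi and vesicle traffic genes 9 rose (25.7%) and 6 fell (17.1%), against 10.9% and 17.0% of all genes. Beside TVP23C, TVP23B and TRAPPC13, the vesicle fusion protein BET1 rose by 1.68 and GOLT1B by 0.90, and TRAPPC9, TRAPPC1 and YIPF3 fell by 0.73, 0.68 and 0.67. Without Dox replicate 3, 3 fell.

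The cells kept prostate luminal markers in both conditions. Of 22 luminal markers on the array, 19 were above background on all 6 arrays, and their summed intensity was 18279 to 24043 without Dox and 21655 to 22918 with Dox. Of 20 tested, 4 rose and 4 fell (20% each, against 10.9% and 17.0% of all genes). STEAP1, a membrane reductase of prostate cancer, was at 10.75, 10.81 and 10.36 without Dox and at 12.05, 12.21 and 12.49 with it. It rose by 1.61 (SE 0.22, limma adjusted p = 6.37e-05), with other probes at 2.16, 1.16 and 0.57, against -0.98 in 22Rv1 (difference 2.60, limma adjusted p = 5.73e-06). AMACR rose by 0.81 (other probes 0.29 and 0.03), and the lineage factors HOXB13 and FOXA1 fell by 0.56 and 0.50. Without Dox replicate 2, 2 rose and 2 fell, without Dox replicate 3, 2 rose, and without no Dox replicate 3, 2 fell. KRT8 (-0.04), KRT18 (-0.26) and CDH1 (-0.33), epithelial markers, were not called. Basal markers were near absent: of 11 on the array 8, among them KRT5, KRT14 and KRT15, were above background on no LNCaP array, and the sum was 1179 to 1251 without Dox and 1176 to 1236 with it. Of the leukocyte markers 7 of 13, PTPRC, CD3D and CD3E included, and of the stromal and endothelial markers 7 of 17, COL3A1, DCN and CDH5 included, were above background on no LNCaP array, while 2 leukocyte and 5 stromal and endothelial markers were above background on all 6. ITGA6 (-0.91), TAGLN (-0.85), VWF (-0.82) and CD79A (-0.46) were the called markers of these lists, all lower. Further probes changed by 0.0006 and 0.06 for ITGA6, -0.04 and 0.03 for TAGLN and 0.06 and -0.01 for CD79A. The part of these markers in the results was not tested. The leukocyte and stromal sums were 2053 to 3846 and 2102 to 2251 without Dox and 1848 to 2185 and 2035 to 2130 with it.

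Androgen receptor targets showed no common direction. Of 43 tested, 8 rose (18.6%) and 9 fell (20.9%), against 10.9% and 17.0% of all genes, with a median of -0.02. With the axis subtracted 11 rose and 5 fell. KLK3, which encodes prostate-specific antigen, was at 6.06, 5.92 and 6.23 without Dox and at 6.19, 6.48 and 6.71 with it, a rise of 0.39 (SE 0.13, limma adjusted p = 0.0297) with overlap between the groups. It was not called without Dox replicate 2 (0.38), Dox replicate 3 (0.26), no Dox replicate 1 (0.39) or no Dox replicate 2 (0.31). KLK2 was at 8.18, 8.24 and 8.42 and then 7.65, 7.83 and 8.10 (-0.42, SE 0.16, limma adjusted p = 0.0621), and TMPRSS2 at 10.01, 10.23 and 9.92 and then 9.55, 10.09 and 10.25 (-0.09, SE 0.21), neither called. FKBP5, a co-chaperone and standard readout of the receptor, fell by 0.56 (SE 0.19, limma adjusted p = 0.0321) from 9.38, 9.70 and 9.23 to 8.96, 8.81 and 8.85, and changed by 0.05 with the axis subtracted. It was not called without any one of the arrays except no Dox replicate 3 (-0.61 to -0.43). EAF2, an elongation factor partner, rose by 1.60 (SE 0.24), OTULINL by 1.12 and ALDH1A3, a retinal dehydrogenase, by 1.08 (second probe 0.27). TPD52 fell by 0.82 (other probes -0.03 and -0.47).

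Of 28 enzymes that inactivate steroids and drugs, 9 rose (32.1%) and 3 fell (10.7%), against 10.9% and 17.0% of all genes. The median change was -0.09, near the -0.08 over all genes, with 13 members above 0 and 15 below. Falls numbered 1 without Dox replicate 1, no Dox replicate 1 or no Dox replicate 2, and 0 without Dox replicate 2. With the axis subtracted 6 rose and 5 fell. Beside NAT1, HSD17B11, a short-chain dehydrogenase of lipid droplets, rose by 1.40 (6.47, 6.66 and 6.01 without Dox, 7.94, 7.62 and 7.78 with it), with other probes at 1.54 and -0.16. The UGT2B enzymes, which conjugate androgens with glucuronic acid in prostate cells, rose: UGT2B11 by 0.96, UGT2B28 by 0.84, UGT2B15 by 0.76, UGT2B7 by 0.73 and UGT2B10 by 0.65. UGT2B17 changed by -0.13 and was not called. These genes lie in a cluster on chromosome 4 and are alike in sequence, so their probes may share signal. In 22Rv1 UGT2B15 and UGT2B10 fell by 2.51 and 2.48, and the lines differed by 3.27 and 3.13 (limma adjusted p = 9.23e-08 and 5.92e-08). SULT1A1 changed by -0.77, and by -0.50 (limma adjusted p = 0.121) without no Dox replicate 3 and -0.60 (limma adjusted p = 0.1003) without Dox replicate 2. Its other probes above background changed by 0.76 and -0.10.

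Of 20 neuroendocrine genes tested, ENO2 (-1.47) and ONECUT2 (-0.65, other probes -0.43 to 0.03) fell, 10% against 17.0% of all genes, and 0 rose. Of 26 on the array, 14, SYP, CHGB and SRRM4 included, were above background on no LNCaP array. Of 25 metallothioneins and zinc transporters 5 rose (20%) and 6 fell (24%), against 10.9% and 17.0% of all genes, and with the axis subtracted 2 rose and 3 fell. MT1H, MT2A, MT1F and MT1E fell by 1.40, 1.24, 1.21 and 0.73, with like sequences whose probes may share signal and with MT2A not called without any one of the arrays (-1.31 to -1.14). The zinc exporter SLC30A1 rose by 0.78 and the importers SLC39A10 and SLC39A6 by 0.67 and 0.65. Without single arrays this list had 3 rises (any Dox replicate or no Dox replicate 3) and 2 or 3 falls (2 without Dox replicate 2, 3 without Dox replicate 3 or no Dox replicate 3). Of 31 interferon and antigen presentation genes, B2M (0.86, second probe 1.15), IFI44 (0.86), IFIT1 (0.63) and PSMB8 (at least 1.22-fold) rose and TAPBP (-0.63, other probes 0.16 and 0.15), IFITM2 (-0.58) and IFITM1 (-0.42) fell, while ISG15 (0.24) and HLA-B (-0.01) were not called. These rises and falls were 12.9% and 9.68% of the list, near or below the shares over all genes. Of 20 clock genes 6 (30%, against 17.0% of all genes) fell and none rose. The falls were BHLHE40, the kinases CSNK1D (-0.66) and CSNK1E (-0.60), HLF (-0.53), NR1D1 (-0.46, below background with Dox) and PER3 (-0.40). Further probes changed by -0.30 for CSNK1D and by -0.33 and 0.04 for CSNK1E. Of 25 cancer-testis antigens 5 rose and 5 fell (20% each): the rises were MAGEA genes, led by MAGEA2 (1.06, other probes 0.41 and -0.12), and the falls were 3 VCX genes, MAGEC1 (-0.50) and MAGED1 (-0.49). Of 28 genes of epithelial adhesion 4 rose and 4 fell (14.3% each), near the shares over all genes, and with the axis subtracted 7 rose and 2 fell. CTNNB1, beta-catenin, rose by 0.92 (other probes -0.07 to 0.95) and its partners CTNNA1, JUP and DSP fell by 0.71, 0.59 (other JUP probes 0.33 and -0.10) and 0.77, and SNAI2 rose by 0.51, above background on 1 of 3 no Dox arrays. Adhesion had 1 rise without Dox replicate 2 and 2 without Dox replicate 3 or no Dox replicate 3, and 2 falls without Dox replicate 3 and 1 without no Dox replicate 2.

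Some genes described above as changed were near the threshold, and each of the following kept its direction but was not called once a single array was left out (limma adjusted p up to 0.239, for JUNB). HOXB13 and BAMBI lost the call without any Dox replicate or no Dox replicate 1, HOXB13 also without no Dox replicate 3 and BAMBI also without no Dox replicate 2. ONECUT2 lost it without Dox replicate 2 or 3 or no Dox replicate 1 or 2, and FOXA1, INSIG1 and IGF2R without Dox replicate 2 or 3 or no Dox replicate 2. SLC7A11 lost it without Dox replicate 1 or 2 or no Dox replicate 1 or 3, CD79A without Dox replicate 1 or 2 or no Dox replicate 2 or 3, and CTNNA1 without Dox replicate 1 or 3 or no Dox replicate 2. KLF6 lost it without Dox replicate 2 or 3 or no Dox replicate 3, JUNB without Dox replicate 2 or no Dox replicate 2 or 3, and IFITM1 without Dox replicate 3 or no Dox replicate 1 or 3. ACLY, TP53INP1 and BMPR2 lost it without Dox replicate 1 or no Dox replicate 2, SDHA and PKIG without Dox replicate 3 or no Dox replicate 1, and SNAI2 without Dox replicate 2 or no Dox replicate 3. TTK and PRIM1 lost it without Dox replicate 1, CYP51A1 without Dox replicate 3, BAX without no Dox replicate 1, SPRY1 and DSP without no Dox replicate 2, and UGT2B15 without no Dox replicate 3.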

How the data were processed

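Total RNA was labelled as biotinylated cRNA and hybridised to Illumina arrays, 3 per group, per the labels' protocols. The authors deposited bead intensities without normalization and a detection p-value per probe and array, per the file headers. They also deposited a log2 matrix. It equalled quantile-normalized log2 intensities within 0.01 in all but 114 of 851454 values, and its columns had medians of 6.80 to 6.81. How the deposited values were made is otherwise not given in the sources used here.

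Intensities were corrected with neqc (normexp from the detection p-values, offset 16, quantile normalization) in limma 3.58.1 (R 4.3.3, statmod 1.5.0). Probes with 1 gene symbol and a detection p under 0.05 on at least 3 of 18 arrays were kept, 18408 of 47303, and the probe with the highest mean level stood for each of 13680 genes. Of all probes 30103 had 1 symbol, 8 several and 17192 none in the platform annotation. The fit used all 18 arrays with a mean for each of 6 groups (12 residual and 8.73 prior degrees of freedom), with 2-sided moderated tests and Benjamini-Hochberg adjustment over all genes. The difference between the responses of LNCaP and 22Rv1 was tested as a contrast in that fit. On simulated data for the LNCaP comparison (13680 genes), 87.8% of genes changed by 2-fold and 42.8% of those changed by 1.5-fold were recovered, with 6% of calls false. The simulation drew noise independently for each gene, with no axis shared by genes and far fewer changed genes than were called here. Its shares therefore cannot be carried over to the calls in these data. The number of arrays limits the precision, and no slide or scan is given for them.

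Named genes were LGALS4, the 15 largest called rises and falls with arrays apart, members of the gene lists, the 10 largest differences from 22Rv1 in each direction, and a few set genes whether called or not. Genes above background on no LNCaP array were not named, apart from markers of other cell types. The members and lists were chosen with earlier results of these data known. Alternatives covered the background correction, scaling, filter, probe choice, samples fitted, replicate block, array weights, the main axis within groups, the variance trend and each array left out. Same-numbered Dox and no Dox arrays did not deviate together (correlations of -0.03, 0.07 and 0.11).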

Additional observations from a re-analysis of the deposited data

Results flagged for a closer look

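The values here are the log2 change with Dox in LNCaP minus that in 22Rv1, each called in limma's test of the difference between the lines. Among the genes that rose most in LNCaP, the response lay above that in 22Rv1 for LGALS4 (1.98), NAT1 (1.68), PRKACB (2.48), TVP23B (1.46), RLN2 (1.64), RWDD3 (1.22), H2AC6 (2.24), SELENOP (1.97), TRAPPC13 (1.07), ID1 (2.78), DNAJC25-GNG10 (1.61) and C3orf38 (1.52). Among those that fell most, it lay below for BHLHE40 (-3.13), VCX3B (-2.32), VCX3A (-2.24), ENO2 (-1.66), COXFA4L2 (-2.81), AKAP12 (-2.27), VCX (-2.22), SLC6A10P (-2.42), STC1 (-2.28) and GPI (-1.53), while for the metallothionein MT1H, which fell in both lines, it lay above (1.32).

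The largest differences above, over all genes, were ALB (5.32), TMEFF2 (3.78), AGR2 (3.75), SYT4 (3.42), DDIT4L (3.38), CBLN2 (3.31), UGT2B15 (3.27), UGT2B10 (3.13), SYTL2 (3.12) and COLCA1 (3.03). The largest below were ITGA5 (-3.77), BASP1 (-3.19), ERBB2 (-3.14), MAPT (-3.08), CRYAB (-3.07) and PRKCB (-2.97), and CMKLR2, MIGA1 and SNAPC1, which were high on LNCaP no Dox replicate 3, with -3.22, -3.03 and -2.98. No cause of these differences was tested.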

How the results depend on the processing

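With no background correction 3786 genes were called, with 103 rises and 14 falls of 2-fold or more, and with the deposited log2 matrix 3787, with 103 and 15. Median scaling in place of quantile normalization called 2213 genes (1139 lower, 48.5% higher against 39.1%), and 1707 in the difference between the lines. Array weights called 5437 genes and 4673 in that difference. With the score on the main axis within groups as a covariate, which separates the LNCaP conditions, 243 genes were called, 169 higher and 74 lower, of which 57 and 14 by at least 2-fold. With the axis subtracted in place of a covariate, chosen after seeing the data, 2531 were called, 1322 lower and 69 higher by at least 2-fold, and 1670 of the main calls were kept. Under both uses of the axis FKBP5 changed by 0.0487, RPA3 by -0.0718, RPL36A by -0.165 and IGF2R by 0.0593, opposite to their main change, and under subtraction PRKCB changed by -0.94. The cause was not tested. The replicate number as a block called 3542 genes, but the numbers were not shown to pair the arrays. The other filters, the mean of a gene's probes, a fit restricted to the LNCaP arrays and the variance trend called 3590 to 4047. Leaving out 1 array at a time gave 2542 to 3126 calls, 1396 to 1865 lower and 56 to 114 lower by at least 2-fold. Of the 206 calls among the named genes checked singly, 173 to 187 were kept. The LGALS4 rise was called under every alternative, at 0.70 without background correction to 2.30 without Dox replicate 1 (limma adjusted p up to 0.00149). Signal near background limits the fold changes of dim probes, as the 2-fold counts without background correction show.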
